A study of Mus musculus with 12 samples.

Results

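Expression of 7 genes that encode regulators of mRNA decay and of proliferation, Btg1, Btg2, Tob1, Zfp36, Zfp36l1, Zfp36l2 and Zc3h12a, was followed by RNA sequencing in Tregs, regulatory T cells that depend on the factor Foxp3 and hold immune responses in check. The genes were taken by name as members of the Btg/Tob, Zfp36 and Regnase families, and all 7 were found among the 24417 genes that the tables list once. Transcripts were measured in 4 groups of 3 libraries each, which were islet Tregs with the T cell receptor (TCR) 4-8, islet Tregs with the TCR 12-4.4m1, spleen Tregs with 4-8 and spleen Tregs with 12-4.4m1. Both receptors recognise insulin, 4-8 with high and 12-4.4m1 with low affinity. All mice were NOD, a strain prone to autoimmune diabetes, were 6.8 weeks old and were retrogenic, so their T cells came from bone marrow given TCR genes by a retrovirus. Each affinity is represented by 1 receptor, so its effect cannot be told apart from that of other properties of these receptors. The labels give neither the number of mice nor whether cells were pooled, so the p-values below measure the spread between these libraries.

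The lifetime of an mRNA is largely set by how fast its poly(A) tail is removed. BTG1, BTG2 and TOB1 bind the CAF1 subunit of the CCR4-NOT deadenylase and bring it to mRNAs, and all 3 proteins slow proliferation when overexpressed. In mice, Btg1 and Btg2 are known for keeping naive T cells quiescent, and Tob1 for holding back T cell activation. The ZFP36 proteins, of which ZFP36 is tristetraprolin, bind AU-rich elements in 3′ untranslated regions (3′ UTRs) and recruit the same deadenylase, and they limit cytokine mRNAs in activated T cells. Zc3h12a encodes Regnase-1, an endonuclease that cuts stem-loops in the 3′ UTRs of cytokine and activation mRNAs and is itself cleaved after TCR signalling. Several of these genes, Zfp36 and Btg2 among them, are also known as early response genes, whose transcripts rise soon after many stimuli.

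Sequences of 2 kinds are shown because the members' tissue differences, described below, ran in 1 direction: the bases before the start of the gene, where factors of the early response can bind, and AU-rich sites through which the ZFP36 proteins act. The promoters are from RefSeq on GRCm38.p6, written along the strand of the gene for the 250 bases before its start, and 6 of the 7 members were matched, all but Zfp36l2. They were searched on both strands for the cyclic AMP response element (CRE) TGACGTCA, the AP-1 motif TGANTCA, the EGR1 motif GCGGGGGCG or GCGTGGGCG, the TATA box TATAAA, and a CArG box and an NF-kB site by their usual patterns, and matches are in capitals. The promoter of Btg2, at chr1:134079156-134079405 on the minus strand, held a CRE 166 to 159 bases before the start. That of Zfp36l1, at chr12:80113014-80113263 on the minus strand, held an AP-1 motif 129 to 123 bases and a TATA box 29 to 24 bases before the start, and that of Btg1, at chr10:96616751-96617000 on the plus strand, held a TATA box 26 to 21 bases before it.
Btg2 promoter: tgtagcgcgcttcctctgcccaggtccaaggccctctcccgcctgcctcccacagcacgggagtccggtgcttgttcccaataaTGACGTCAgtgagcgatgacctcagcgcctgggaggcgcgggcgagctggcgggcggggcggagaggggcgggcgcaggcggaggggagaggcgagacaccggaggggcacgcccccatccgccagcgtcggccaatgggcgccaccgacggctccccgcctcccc
Zfp36l1 promoter: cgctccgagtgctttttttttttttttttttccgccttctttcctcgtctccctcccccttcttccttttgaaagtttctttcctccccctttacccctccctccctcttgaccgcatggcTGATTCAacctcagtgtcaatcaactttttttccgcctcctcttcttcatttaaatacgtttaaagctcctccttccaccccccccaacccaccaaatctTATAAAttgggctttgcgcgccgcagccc
Btg1 promoter: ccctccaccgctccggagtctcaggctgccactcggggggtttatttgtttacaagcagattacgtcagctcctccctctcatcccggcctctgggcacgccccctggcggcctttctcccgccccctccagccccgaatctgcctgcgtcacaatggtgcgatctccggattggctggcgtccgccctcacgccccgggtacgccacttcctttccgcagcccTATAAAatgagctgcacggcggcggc

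For Zfp36 only short stretches are shown, because the whole window lies within an exon of a longer GENCODE transcript. Its CArG box, the site of serum response factor, lay 58 to 49 bases before the RefSeq start (chr7:28379267-28379296, minus strand), and its EGR1 motif 105 to 97 bases before it (chr7:28379315-28379344, minus strand).
Zfp36 CArG box: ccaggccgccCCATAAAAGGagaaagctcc
Zfp36 EGR1 motif: cgagctacgccGCGGGGGCGcgtcccggaa

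The Tob1 window held a TATA box 47 to 42 bases before the start, and the Zc3h12a window held none of the 6 motifs. Of 32851 RefSeq promoters of the same length, 1.55% held the CRE, 1.47% the CArG box, 3.06% the EGR1 motif, 6.75% the AP-1 motif, 7.25% the NF-kB site and 12.4% the TATA box. These are matches of letters, and no binding was measured here.

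The 3′ UTRs, taken from GENCODE vM21, were searched on the sense strand for the AU-rich heptamer TATTTAT, a sequence that ZFP36 proteins bind. The family's own 3 genes, Zfp36, Zfp36l1 and Zfp36l2, each held 3 heptamers, 1 of them within the longer form TTATTTATT. Btg2 held 1 heptamer, and Btg1, Tob1 and Zc3h12a held 0. Among 21005 genes with a 3′ UTR, 27.6% held at least 1 heptamer and 4.13% at least 3. Among the 10649 genes whose 3′ UTR was as long as those of the members, the shares were 38.1% and 4.78%. One stretch per gene is shown, with the heptamers in capitals: bases 571 to 600 of the Zfp36 3′ UTR, which hold 2 of them, 1138 to 1167 of Zfp36l1, 810 to 839 of Zfp36l2 and 91 to 120 of Btg2.
Zfp36 3′ UTR: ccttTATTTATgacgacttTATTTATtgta
Zfp36l1 3′ UTR: cttatcaaaacgTATTTATtgccaaactat
Zfp36l2 3′ UTR: aactatttaactTATTTATtatcttgtgaa
Btg2 3′ UTR: aaaatgaagagcTATTTATacatgtttttt

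On GRCm38, the protein-coding genes lie on chromosome 10 at 96617006 to 96622809 (Btg1), chromosome 1 at 134075170 to 134079120 (Btg2), chromosome 11 at 94211454 to 94215495 (Tob1), chromosome 7 at 28376784 to 28380253 (Zfp36), chromosome 12 at 80107754 to 80113013 (Zfp36l1), chromosome 17 at 84183931 to 84187947 (Zfp36l2) and chromosome 4 at 125118423 to 125127840 (Zc3h12a). Each of the 3 Zfp36 family members overlaps an annotated noncoding gene on the other strand. The labels do not say that reads were assigned by strand, so reads of these pairs cannot be told apart.

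Per-library values are the authors' regularized log (rlog) values, a log2 scale on which low counts are shrunk towards the gene's mean. Each of 4 tables, 1 per comparison, was normalized on its own, so differences were fitted within a table. Genes with a mean normalized count of at least 10 were tested, 8981 and 8438 of them between tissues for 4-8 and 12-4.4m1, and 8212 and 9108 between TCRs in islets and spleen. All 7 members were tested in all 4 tables, at mean normalized counts between 22.8 (Tob1, spleen TCR table) and 1127 (Zfp36l1, islet TCR table). The labels check against markers: the authors' FPKM of Foxp3 was 163 in both islet and spleen 4-8 Tregs, and 165 in islet and 149 in spleen 12-4.4m1 Tregs, and its rlog values did not pass in any comparison. Of 7 Treg and T cell markers, 3 were called higher in islets for 4-8, Ctla4, Cd4 and Cd3e, and 2 for 12-4.4m1, Ctla4 and Cd4. Of all genes tested, 5.14% were called higher in islets for 4-8 and 4.63% for 12-4.4m1. B cell and myeloid markers were mostly below the filter, and 1 of 5 CD8 T and NK markers, Klrd1 (named after its value was seen), was higher in islet 4-8 Tregs. Transcripts of pancreatic acinar cells were present in islet libraries, with 4 of 6 tested markers higher for 4-8 and 5 of 6 for 12-4.4m1. Between TCRs in spleen, 0 acinar and 0 CD8 T and NK markers passed the filter. Those tested between tissues thus passed it through islet libraries, which in part fixed the shares called higher. The summed authors' FPKM of the acinar list was 330 in islet and 13.0 in spleen 4-8 Tregs, and 554 in islet and 10.2 in spleen 12-4.4m1 Tregs. Of 6 islet endocrine markers, 0 passed the filter for 4-8 and 1 for 12-4.4m1. That marker differed by -0.725, was not called by limma and was called in the authors' deposited DESeq2 table. The summed FPKM of the endocrine list was 7.02 in islet and 5.38 in spleen 4-8 Tregs. For 12-4.4m1 it was 41.2 in islets and 26.3 in spleen. In bulk libraries of this kind, fewer cells of a type and less RNA per cell cannot be told apart.

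The comparison of islets with spleen asks how Tregs with 1 receptor differ between the tissue that holds insulin and a lymphoid organ. All 7 genes were higher in islets than in spleen for both receptors. With 4-8, 6 of 7 passed at an adjusted p of 0.05 (limma, adjusted over all genes tested), in a comparison where 5.14% of genes were called higher and 2.84% lower. With 12-4.4m1, 5 of 7 passed, where 4.63% of genes were called higher and 2.18% lower. Without 1 library, calls in either direction were between 3.41% and 13.5% of genes for 4-8 and between 3.41% and 7.23% for 12-4.4m1. Genes with a mean normalized count of at least 50, which include 5 members, were called more often. Of them 12.5% were called in either direction for 4-8 and 13.1% for 12-4.4m1, and the 5 members passed for both receptors. No member was lower in islets for either receptor. The median difference of the 7 was 0.75 log2 units for 4-8 and 0.80 for 12-4.4m1, beside -0.01 and -0.00 over all genes tested. Zc3h12a did not pass for either receptor, and Tob1 did not pass for 12-4.4m1.

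**Figure D1:**
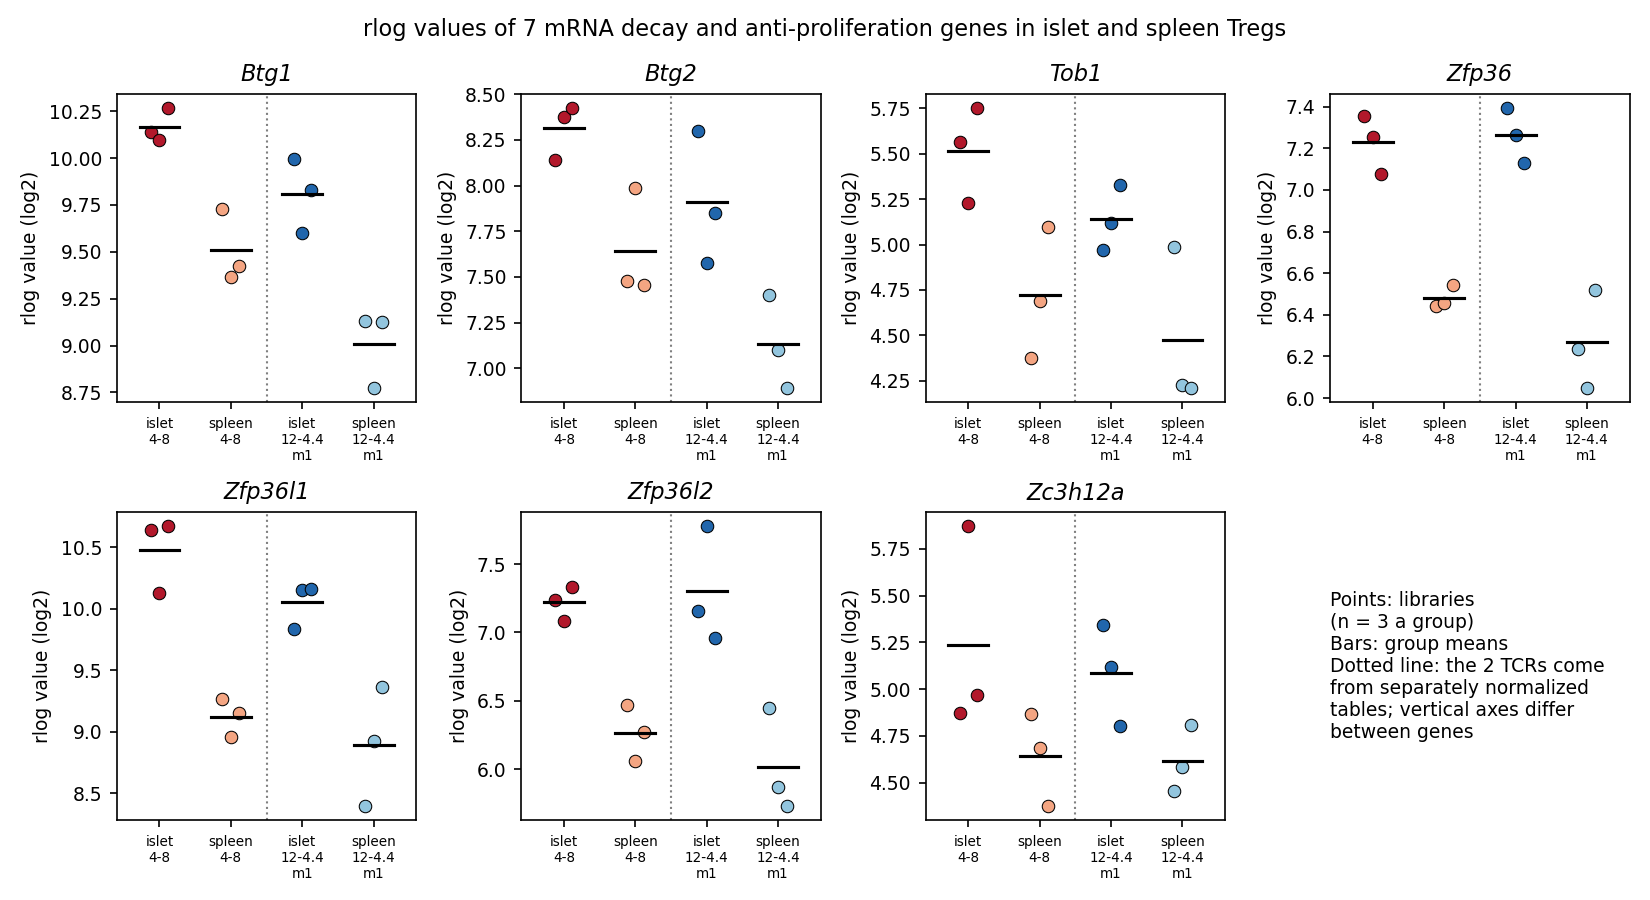
Each panel plots the rlog values (log2 scale) of 1 gene in the 12 libraries of the tissue tables, islet left of spleen for each TCR, with points for libraries and bars for means of 3. Islet means lie above spleen means in all 7 panels, and the islet and spleen points of Tob1 and Zc3h12a overlap for 12-4.4m1.

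Among the 3 Btg/Tob genes, Btg1 was the most abundant. Its rlog values with 4-8 were 10.14, 10.10 and 10.27 in islet libraries, against 9.73, 9.37 and 9.43 in spleen libraries, a log2 difference of 0.66 ± 0.14 (SE; limma adjusted p = 0.00703). With 12-4.4m1 they were 9.998, 9.60 and 9.83 in islets and 9.13, 8.77 and 9.12 in spleen, a difference of 0.80 ± 0.15 (limma adjusted p = 0.000942). Every islet library was above every spleen library of the same receptor, as for 14.3% of genes tested with 4-8 and 13.2% with 12-4.4m1. The 4-8 call was lost without spleen replicate 2 or 3 (limma adjusted p = 0.0605 and 0.0592), and the 12-4.4m1 call held in all 6 fits that left out a library.

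Btg2, the paralogue of Btg1 and a known target of p53, showed a difference of like size. The values with 4-8 were 8.14, 8.38 and 8.43 in islets, against 7.48, 7.98 and 7.46 in spleen (log2 difference 0.68 ± 0.17 SE, limma adjusted p = 0.0196). With 12-4.4m1 they were 8.30, 7.58 and 7.85 in islets and 7.40, 7.10 and 6.89 in spleen (0.78 ± 0.18 SE, limma adjusted p = 0.00923). The groups did not overlap for either receptor, though spleen 4-8 replicate 2 came close to the lowest islet library. Calls of Btg2 turned on single libraries: it did not pass for 4-8 without spleen replicate 1 or 3 (limma adjusted p = 0.131 and 0.134), nor for 12-4.4m1 without islet replicate 1 or spleen replicate 3 (0.0704 and 0.0617).

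Tob1 was among the least abundant members and, with 4-8, the one that varied most between spleen libraries. Its 4-8 values were 5.56, 5.23 and 5.76 in islets and 4.37, 4.69 and 5.10 in spleen, which did not overlap (log2 difference 0.80 ± 0.21 SE, limma adjusted p = 0.0263). With 12-4.4m1 they were 4.97, 5.12 and 5.33 in islets and 4.99, 4.22 and 4.21 in spleen, where spleen replicate 1 lay within the islet range (0.67 ± 0.22 SE, limma adjusted p = 0.0627). Without that spleen library the 12-4.4m1 difference was 0.92 and passed (limma adjusted p = 0.0190). The 4-8 call was lost in 4 of 6 fits that left out a library, those without islet replicate 1 or 3 or spleen replicate 1 or 2 (limma adjusted p between 0.0617 and 0.183).

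On the rlog scale, Zfp36l1 and Zfp36l2 had the widest differences of the members for both receptors, whereas in the authors' FPKM the ratio of Zfp36l2 was the narrowest. Zfp36l1, known for restraining thymocyte proliferation and cell cycle entry, had values of 10.64, 10.12 and 10.67 in islet 4-8 Tregs and 9.26, 8.96 and 9.15 in spleen 4-8 Tregs. The log2 difference was 1.36 ± 0.16 (SE; limma adjusted p = 2.57e-05), the 53rd smallest p of 8981. With 12-4.4m1 the values were 9.84, 10.15 and 10.16 in islets and 8.39, 8.92 and 9.36 in spleen (1.16 ± 0.18 SE, limma adjusted p = 0.000111). Islet libraries stood clear of spleen libraries for both receptors, and spleen 12-4.4m1 libraries were spread over almost 1 log2 unit.

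Zfp36l2, which acts with Zfp36l1 in developing lymphocytes, had values of 7.24, 7.08 and 7.34 in islet 4-8 Tregs and 6.47, 6.06 and 6.27 in spleen 4-8 Tregs (log2 difference 0.95 ± 0.17 SE, limma adjusted p = 0.00155). With 12-4.4m1 they were 7.16, 7.78 and 6.96 in islets and 6.45, 5.87 and 5.73 in spleen (1.28 ± 0.21 SE, limma adjusted p = 0.000226). No islet library fell within the spleen range. For 12-4.4m1, islet replicate 2 and spleen replicate 1 were each the high library of their group.

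Zfp36 had the tightest spleen values of the family with 4-8. Its values were 7.36, 7.25 and 7.08 in islet 4-8 Tregs and 6.44, 6.46 and 6.54 in spleen 4-8 Tregs (log2 difference 0.75 ± 0.16 SE, limma adjusted p = 0.00685). With 12-4.4m1 the values were 7.40, 7.26 and 7.13 in islets and 6.24, 6.05 and 6.52 in spleen (0.99 ± 0.17 SE, limma adjusted p = 0.000432). The groups were apart for both receptors. Zfp36, Zfp36l1 and Zfp36l2 passed for both receptors in all 6 fits of each comparison that left out a library, with adjusted p up to 0.0464 (Zfp36, 4-8).

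Zc3h12a was the least abundant member by FPKM and the only one that did not pass for either receptor. With 4-8 its values were 4.87, 5.87 and 4.97 in islets and 4.87, 4.69 and 4.37 in spleen (log2 difference 0.59 ± 0.24 SE, limma adjusted p = 0.149). The lowest islet library and the highest spleen library were level at 2 decimals, and islet replicate 2 alone stood high; without it the difference was 0.28. With 12-4.4m1 the values were 5.34, 5.12 and 4.80 in islets and 4.45, 4.58 and 4.81 in spleen, which overlapped (0.47 ± 0.20 SE, limma adjusted p = 0.169). The high islet libraries share a title style: 3 of the 6 islet titles carry the word Treg and the others the letter R. In the table that holds all 6, Zc3h12a was between 5.24 and 5.64 in the Treg-titled libraries and between 4.79 and 4.95 in the others. Another 2 members separated by title style in the opposite direction, where 17.6% of genes tested separated in either direction. Tob1 was between 5.19 and 5.39 in the Treg-titled libraries and between 5.404 and 5.58 in the others. Zfp36l1 was between 9.77 and 10.21 in the Treg-titled libraries and between 10.22 and 10.33 in the others. Spleen titles all carry the letter R, and what the styles stand for is not given. Because Treg titles occur only in islets, a fit with title style as a term sets those libraries aside in the tissue difference. For 4-8 it sets aside islet replicate 2, as above, and the Zc3h12a difference was 0.28. For 12-4.4m1 it compares 1 islet library, replicate 3, with spleen, and the Zc3h12a difference was 0.19. The part of title style in these differences was not tested.

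**Figure D2:**
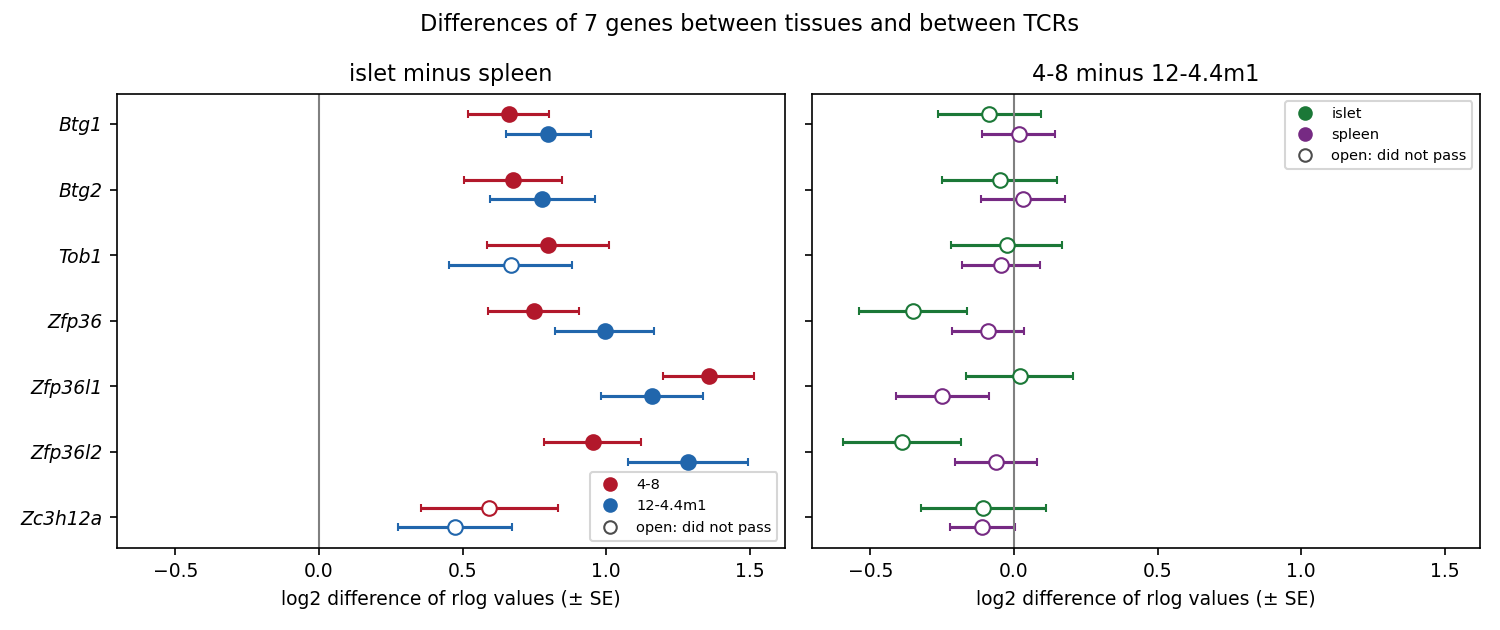
Points are log2 differences of rlog values with SE, for islet minus spleen (left, by TCR) and 4-8 minus 12-4.4m1 (right, by tissue), filled where limma's adjusted p passed 0.05. All 14 tissue differences are positive and 11 are filled, while no TCR difference is filled.

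Levels of different genes can be compared per length only in the authors' FPKM, which have 1 value per group and no spread. In islet 4-8 Tregs, FPKM ran from 435 for Zfp36l1 and 284 for Btg1, through 87.2 for Btg2, 78.0 for Zfp36l2 and 76.2 for Zfp36, down to 22.0 for Tob1 and 14.99 for Zc3h12a. In spleen 4-8 Tregs, Btg1 was first at 155 and Zfp36l1 second at 121. The other 5 ranged from 48.4 (Zfp36l2) down to 5.63 (Zc3h12a). In islet 12-4.4m1 Tregs, Zfp36l1 was at 414, Btg1 at 315, Zfp36 at 113 and Zc3h12a at 14.97. In spleen 12-4.4m1 Tregs the same genes were at 159, 148, 40.3 and 6.61. FPKM ratios of islets over spleen, between 1.61 (Zfp36l2) and 3.605 (Zfp36l1) for 4-8 and between 1.86 (Zfp36l2) and 2.81 (Zfp36) for 12-4.4m1, were mostly wider than the folds of rlog values. Those ran from 1.51 to 2.56 for 4-8 and from 1.39 to 2.44 for 12-4.4m1. For Tob1 with 4-8 the FPKM ratio was 3.11 and the rlog fold 1.74.

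**Figure D3:**
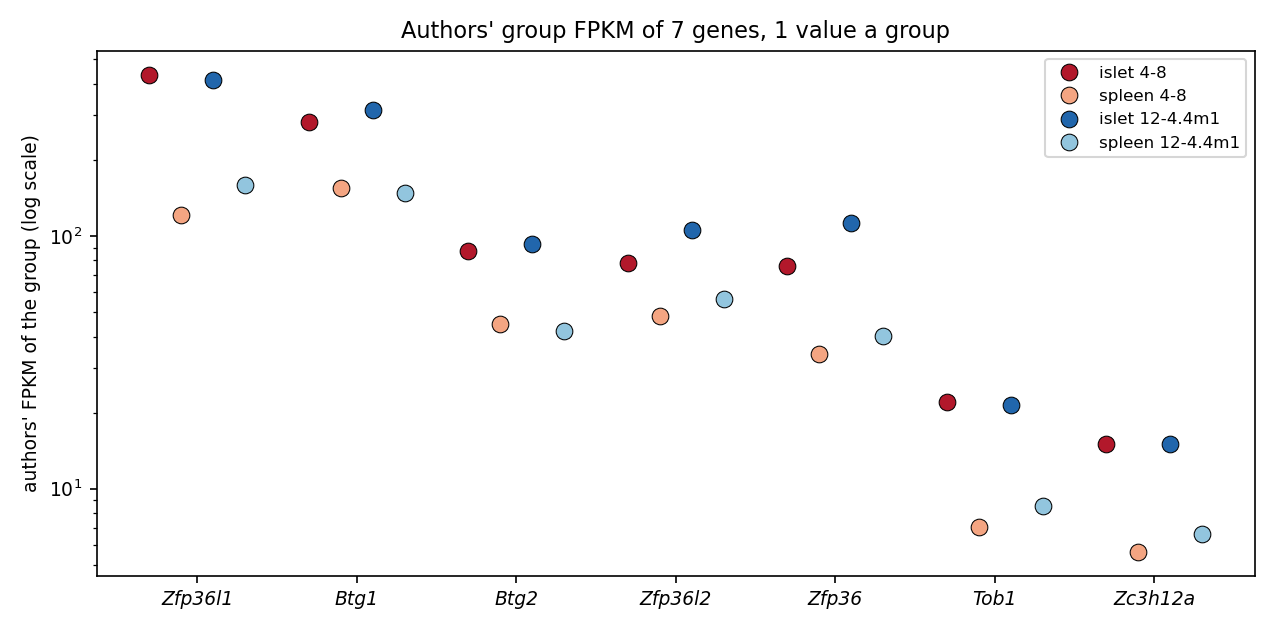
Points give the authors' FPKM of each group on a log axis, with genes ordered by their level in islet 4-8 Tregs and 1 value per group, so no error can be drawn. Every gene is higher in the islet groups than in the spleen groups, from 435 against 121 FPKM for Zfp36l1 to 14.99 against 5.63 for Zc3h12a with 4-8.

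The authors' own count tests gave nearly the same calls. In the authors' deposited DESeq2 tables, 5 members passed for each receptor, namely Btg1, Btg2, Zfp36, Zfp36l1 and Zfp36l2, where 6.76% of genes were called for 4-8 and 4.72% for 12-4.4m1. In the authors' deposited Cuffdiff tables, all 7 passed for 4-8 and 5 for 12-4.4m1, where 15.7% and 14.4% of genes were called. For 4-8, Tob1 and Zc3h12a were thus the members whose calls depended on the method. For 12-4.4m1, neither passed in the main limma fit or in the authors' deposited DESeq2 and Cuffdiff tables.

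The comparison of the receptors asks, within a tissue, how the higher affinity of 4-8 over 12-4.4m1 goes with transcript levels. By limma, 0 of 7 members passed in islets, where 0.365% of genes were called, and 0 of 7 in spleen, where 0.428% were called. At an unadjusted p of 0.05 the count was also 0 in both tissues, beside 6.78% and 7.93% of genes, and it was 0 by the authors' deposited DESeq2 tables (0.353% of genes called in islets and 0.231% in spleen) and by their Cuffdiff tables (0.945% and 1.15%). A p that misses the threshold does not show that the receptors gave equal levels.

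In islets, the 2 widest differences were in the AU-rich element binding proteins. Zfp36 was at 7.07, 7.01 and 6.82 in islet 4-8 Tregs and at 7.45, 7.32 and 7.18 in islet 12-4.4m1 Tregs, and the groups did not overlap, as for 11.9% of all genes (log2 difference -0.35 ± 0.19 SE, limma adjusted p = 0.770). Zfp36l2 was at 7.02, 6.91 and 7.13 in islet 4-8 Tregs and at 7.28, 7.88 and 7.07 in islet 12-4.4m1 Tregs, with overlap and 1 high 12-4.4m1 library, replicate 2 (-0.39 ± 0.21 SE, limma adjusted p = 0.765). Without that library the Zfp36l2 difference was -0.157, narrower than those of Btg2 (-0.21) and Btg1 (-0.19). Early response and dissociation genes leaned the same way. Of 16, 14 had a negative difference, with a median of -0.40. By limma 0 passed, 10 had an unadjusted p under 0.05, and the authors' deposited DESeq2 and Cuffdiff tables called 2 each, with Fos at -0.55 ± 0.18 SE (limma adjusted p = 0.325) and Hspa1a at -0.78 ± 0.19 SE (limma adjusted p = 0.0722). Their part in the Zfp36 values was not tested.

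The other 5 members differed between the receptors in islets by between -0.11 (Zc3h12a) and 0.02 (Zfp36l1) log2 units. Zfp36l1 was at 10.29, 9.77 and 10.33 in islet 4-8 Tregs and at 9.89, 10.21 and 10.22 in islet 12-4.4m1 Tregs, so the groups overlapped. In spleen, Zfp36l1 had the widest difference, with 9.15, 8.82 and 9.04 in 4-8 and 8.74, 9.30 and 9.72 in 12-4.4m1 libraries (-0.25 ± 0.16 SE, limma adjusted p = 0.753). It was -0.51 without 12-4.4m1 replicate 1 and -0.0172 without 12-4.4m1 replicate 3. The other 6 differed there by between -0.11 (Zc3h12a) and 0.03 (Btg2), and the groups overlapped for all 7, beside 13.3% of genes whose groups did not. Whether the tissue difference of any member differed between the receptors was not tested, since the tissue tables were normalized separately.

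Relatives outside the 7 genes differed in the same direction where they could be tested. Of 8 listed, 4 passed the filter for 4-8 and all 4 were called higher in islets, beside 5.14% of all genes. For 12-4.4m1, 3 passed it, of which 2 were called higher, beside 4.63% of all genes. Between TCRs in spleen 3 passed it, so at least 1 of the 4 was tested for 4-8 through its islet level. The authors' deposited DESeq2 tables called 3 relatives for 4-8 and 0 for 12-4.4m1, and their Cuffdiff tables called 3 for each. Zc3h12d, which encodes Regnase-4, was at 7.49, 7.62 and 7.67 in islet 4-8 Tregs and at 6.42, 6.66 and 6.73 in spleen 4-8 Tregs (log2 difference 0.99 ± 0.16 SE, limma adjusted p = 0.000621), and its difference was 0.86 ± 0.21 SE for 12-4.4m1 (limma adjusted p = 0.0124). By limma it passed for both receptors, with groups that did not overlap. Tob2, the paralogue of Tob1, was higher by 0.69 ± 0.16 SE for 4-8 and by 0.64 ± 0.17 SE for 12-4.4m1 (limma adjusted p = 0.0110 and 0.0196). N4bp1, an endonuclease related to Regnase-1, was higher by 0.58 for 4-8 (limma adjusted p = 0.0262), and its difference of 0.58 for 12-4.4m1 did not pass (0.0635). Zc3h12c was higher by 0.72 for 4-8 (limma adjusted p = 0.0409) and was below the filter for 12-4.4m1. Btg3 and Zc3h12b were below the filter, and Btg4 and Zfp36l3 were listed at 0.

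Most genes of the general decay machinery did not pass, as was so for most genes tested. Among CCR4-NOT subunits and other deadenylases, 2 of 15 (13.3%, beside 5.14% of all genes) were called higher in islets for 4-8, the subunit Cnot11 at 0.66 ± 0.17 SE and Pan3, of the PAN2-PAN3 deadenylase, at 0.56 ± 0.15 SE. For 12-4.4m1 the count was 1 of 15 (6.67%, beside 4.63%), Pan3 at 0.52 ± 0.16 SE. Median differences of that list were -0.08 and -0.02. Among decapping and 5′ decay genes, 1 of 12 (8.33%, beside 2.84% of all genes) was called lower for 4-8, the exonuclease Xrn1 at -0.99 ± 0.16 SE (limma adjusted p = 0.000681). For 12-4.4m1, 1 of 12 (8.33%, beside 4.63%) was called higher, the helicase Upf1 of nonsense-mediated decay at 0.59 ± 0.18 SE. Median differences of the decapping list were -0.08 for 4-8 and -0.26 for 12-4.4m1, with 5 and 2 of the 12 positive. The authors' deposited DESeq2 table for 12-4.4m1 called 0 genes of either list, and their Cuffdiff table called 4 deadenylase and 3 decapping genes. The Xrn1 difference for 12-4.4m1 was -0.48 ± 0.18 SE and did not pass (limma adjusted p = 0.127). Of 14 exosome genes, Exosc1 was called lower for 4-8 (-0.65 ± 0.18 SE; 7.14% of the list, and 0 in the authors' deposited DESeq2 table), and 0 passed limma for 12-4.4m1, where 2 had an unadjusted p under 0.05, the authors' deposited DESeq2 table called 0 and their Cuffdiff table called 1. Of 12 Roquin and other mRNA-binding regulators, 0 passed limma for either receptor, with medians of -0.08 and -0.05. At an unadjusted p of 0.05 there were 1 for 4-8 and 3 for 12-4.4m1, with 0 in each of the authors' deposited DESeq2 tables and 1 in each of their Cuffdiff tables.

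Transcripts known as targets of ZFP36 proteins or Regnase-1 in other settings were in large part higher in islets. Of 20 listed, 14 passed the filter for each receptor, and 8 were called higher for 4-8 and 9 for 12-4.4m1, beside 5.14% and 4.63% of all genes. The count called lower was 0 for both, and the medians were 0.80 and 0.96. At least 1 of the 14 was tested between tissues through its islet level, since 13 passed the filter between TCRs in spleen. In either direction, the authors' deposited DESeq2 tables called 9 for 4-8 and 8 for 12-4.4m1, and their Cuffdiff tables called 10 for each. Ctla4, the inhibitory receptor, was higher by 2.03 ± 0.15 SE for 4-8 and 2.21 ± 0.16 SE for 12-4.4m1. Nfkbid and Nfkbiz, which encode nuclear IκB proteins, were higher by 1.35 ± 0.16 SE and 0.997 ± 0.15 SE for 4-8 and by 1.78 ± 0.18 SE and 1.40 ± 0.14 SE for 12-4.4m1. The cytokines Ifng and Il10 were higher by 2.02 ± 0.18 SE and 3.04 ± 0.29 SE for 4-8. They were also called between receptors, higher in islet 4-8 than islet 12-4.4m1 Tregs by 1.12 ± 0.21 SE and 1.33 ± 0.29 SE (limma adjusted p = 0.00651 and 0.0301). Steady transcript levels do not measure decay, and no relation between these targets and the 7 genes was tested.

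Cell cycle genes, relevant because several of the 7 genes slow proliferation, were called in both directions. Cdkn1a, which encodes the cell cycle inhibitor p21, was higher in islets by 1.33 ± 0.21 SE for 4-8 and 0.74 ± 0.22 SE for 12-4.4m1 (limma adjusted p = 0.000558 and 0.0405). Cyclin D2, from Ccnd2, was lower, at -0.57 ± 0.14 SE and -0.70 ± 0.16 SE (limma adjusted p = 0.0163 and 0.00787). The replication licensing genes Mcm2 and Mcm5 were higher for 4-8, by 0.80 ± 0.22 SE and 0.61 ± 0.18 SE. Mki67, a marker of cycling cells, differed by 0.18 ± 0.15 SE and 0.09 ± 0.17 SE and did not pass. In all, 3 of 16 (18.8%) were called higher and 1 (6.25%) lower for 4-8, beside 5.14% and 2.84% of all genes. For 12-4.4m1, 1 of 15 (6.67%) was called higher and 1 lower, beside 4.63% and 2.18% of all genes.

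**Figure D4:**
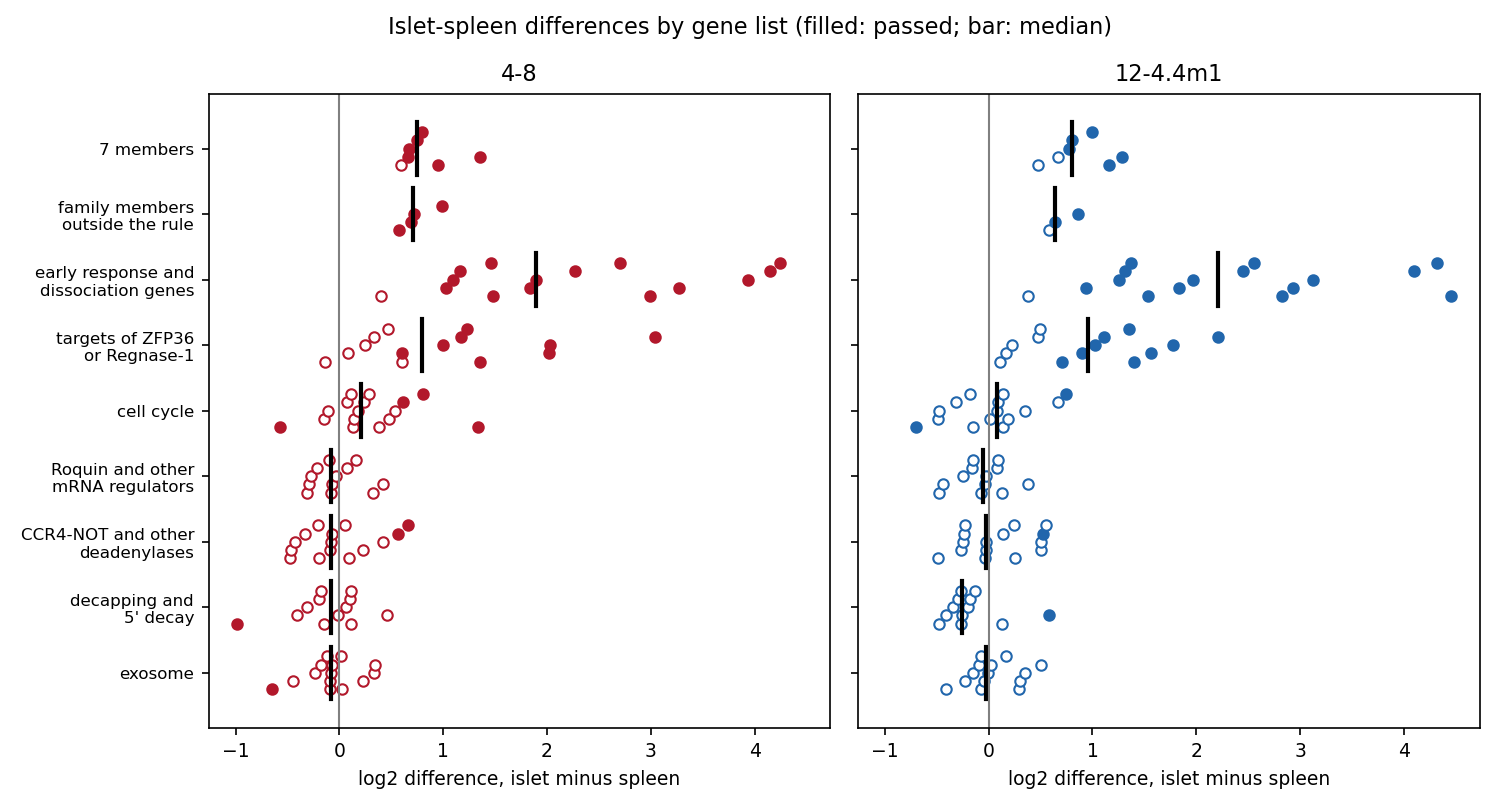
Each point is 1 gene's log2 difference of rlog values, islet minus spleen, by gene list and TCR; filled points passed limma's adjusted p of 0.05 and black bars are list medians. The 7 members have medians of 0.75 and 0.80, between the early response and dissociation genes (1.89 and 2.21) and the decay machinery, whose list medians lie between -0.26 and -0.02.

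The tissue difference of the members went with a wide one in early response and dissociation genes, transcripts that rise with stimulation and during tissue digestion. Of these, 14 of 15 tested were called higher in islets for 4-8 and 15 of 16 for 12-4.4m1, beside 5.14% and 4.63% of all genes. Their medians were 1.89 and 2.21. Between TCRs in spleen 10 of the 16 passed the filter, so some were tested between tissues through their islet levels. Fos was at 8.62, 8.64 and 8.43 in islet 4-8 Tregs and at 4.58, 4.36 and 4.01 in spleen 4-8 Tregs, and differed by 4.24 ± 0.18 SE for 4-8 and 4.46 ± 0.19 SE for 12-4.4m1. Jun, Dusp1 and the heat shock gene Hspa1a were higher by 2.71, 2.997 and 4.15 for 4-8, and by 2.94, 3.12 and 4.32 for 12-4.4m1. The summed level of the list, on the linear scale of rlog values, lay between 8065 and 9056 in islet and between 2439 and 2577 in spleen 4-8 libraries. It lay between 7693 and 9175 in islet and between 2007 and 2259 in spleen 12-4.4m1 libraries. The sources used here do not give how cells were isolated from either tissue. The part of these genes, and of the acinar transcripts, in the members' tissue differences was not tested.

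Across the 12 libraries of the tissue tables, with each gene centred on its mean in its table, the members were positively correlated. Pearson's r of the 21 pairs ran from 0.24 (Tob1 and Zc3h12a) to 0.92 (Btg1 and Zfp36), with a median of 0.74. Their r with Fos was 0.97 for Zfp36, 0.94 for Btg1, 0.93 for Zfp36l1, 0.90 for Zfp36l2, 0.835 for Btg2, 0.77 for Tob1 and 0.72 for Zc3h12a. These values share the tissue contrast and the libraries, so they restate it in part. Centred on group means instead, the 21 pairs had a median r of 0.015, from -0.74 (Tob1 and Zc3h12a) to 0.36, and 11 were positive. Among libraries of 1 group, pairs were thus about as often negative as positive. With Fos, r centred on group means was 0.67 for Zfp36, 0.55 for Zc3h12a, 0.46 for Btg1 and 0.30 for Zfp36l1. It was -0.0383 for Zfp36l2, -0.157 for Btg2 and -0.58 for Tob1.

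**Figure D5:**
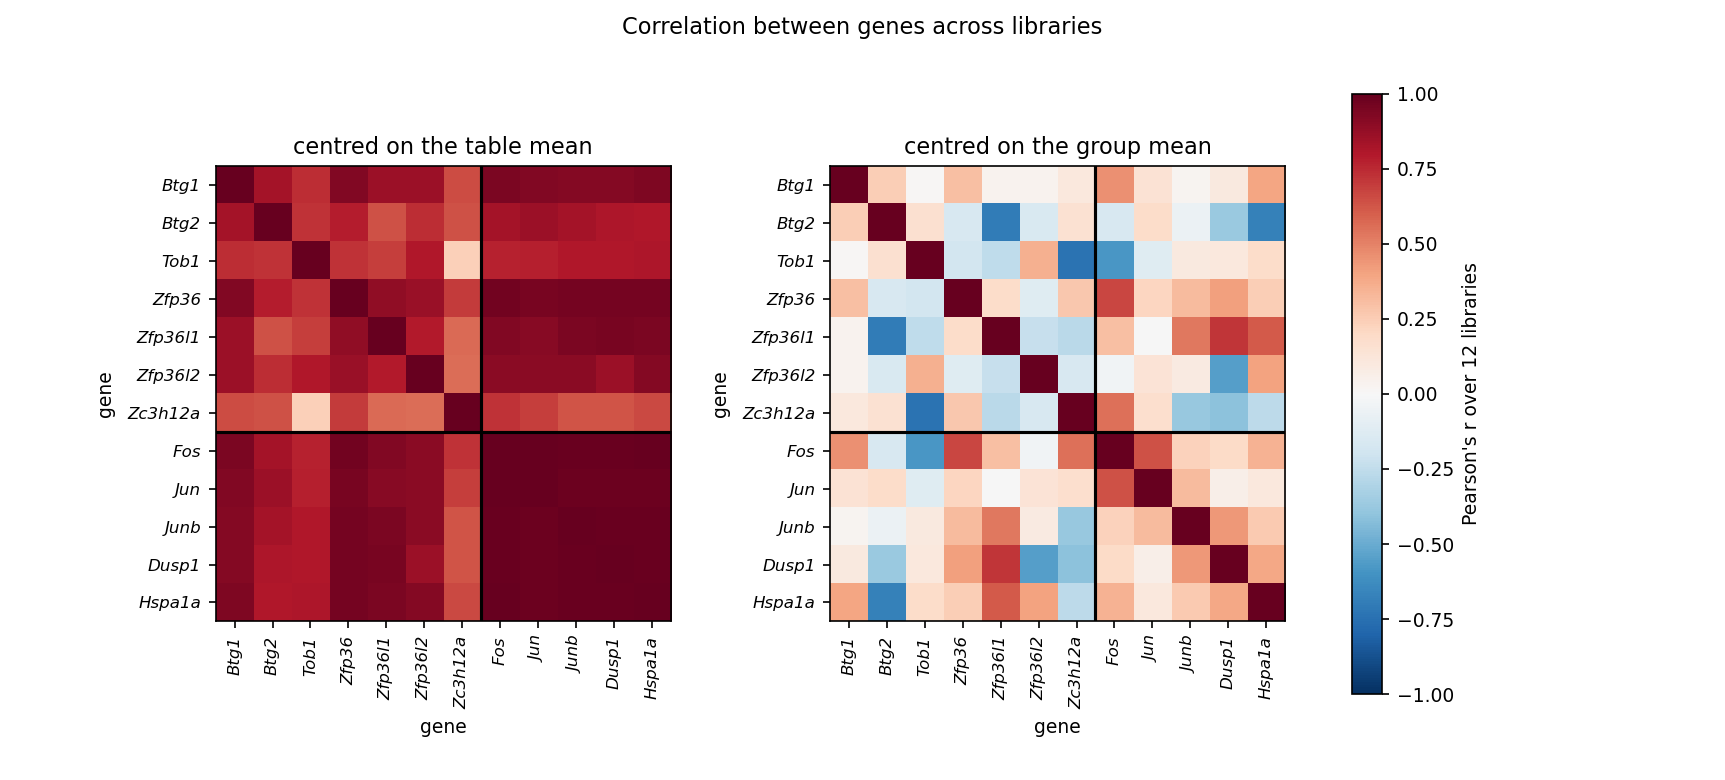
Heat maps of Pearson's r over 12 libraries between the 7 members and 5 early response or heat shock genes, centred on the table mean (left) or the group mean (right); black lines part the members from the other genes. On the left the member pairs run from 0.24 to 0.92, and on the right their median is 0.015.

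The genes most like each member over the same 12 libraries were taken from 3506 genes with a mean normalized count of at least 50 in all tables (3505 for members in that set). For Zfp36l1 these were Cd200, Ccr8 and Kdm6b (r = 0.98, 0.97 and 0.96), and for Zfp36 they were Stat3, Skil and Rgs1 (0.98, 0.97 and 0.97). Zfp36l2 was closest to Sfpq, Dnaja1 and Map3k4 (0.96, 0.95 and 0.95). Genes close to Btg1 were Cxcr4 and Isy1 (both 0.95), and Btg2 was closest to Mprip, Acp5 and Map2k3 (0.95, 0.94 and 0.93). Tob1 was closest to Prkar1a, Mrpl41 and Acin1 (0.92, 0.91 and 0.91), and Zc3h12a to Pdcd6ip, Trappc11 and Leng8 (0.94, 0.92 and 0.92). With r above 0.9, Zfp36 had 82 such genes, Zfp36l1 64, Btg1 48, Zfp36l2 33 and Btg2 15, against 7 for Zc3h12a and 5 for Tob1. These values share the tissue contrast too. Centred on group means, r of the named pairs ran from 0.44 (Zfp36 and Rgs1) to 0.91 (Zc3h12a and Pdcd6ip). The pairs were picked by their r over these same libraries, which in part fixed these values too.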

How the data were processed

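Sorted Tregs were lysed in Triton X-100, and cDNA was amplified and made into libraries with Nextera XT, per the labels' protocols. The authors used TopHat, Cufflinks, STAR, DESeq and DESeq2 with mm10 (GRCm38), in roles not given, per the submitters' processing notes. The authors deposited, per comparison, rlog values per library (log2 scale). The DESeq2 table deposited by the authors holds mean normalized counts (the signal of a gene after size factors), a log2 fold change, its Wald score and p-values; their Cuffdiff table holds 1 FPKM value per group and p-values, per the file headers. The authors' DESeq2 fold changes run in the opposite direction (spleen over islets, 12-4.4m1 over 4-8). Their adjusted p and q were compared with 0.05. Library depth is unknown, so precision is given by the spread between libraries.

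Each comparison was fitted within its table with limma 3.58.1 (lmFit, eBayes with trend) in R 4.3.3, 3 against 3 libraries, 2-sided, over genes with a mean normalized count of at least 10, with Benjamini-Hochberg adjustment over all of them and a threshold of 0.05. The script was tested on simulated data. With 3 libraries a group, the smallest exact permutation p is 0.1, and none is printed. No fit used counts. In the islet TCR table, 1 column of 4-8 matches no title and is called replicate 3 by elimination. For replicate 2 in spleen, each TCR's description names files of the other; titles were used. Rows of repeated symbols, 4 in all, were left out, and 0 columns. The named genes were all members, all measured relatives, up to 3 called genes per list and direction with the smallest p, Fos, Jun, Dusp1, Hspa1a, Foxp3 and Mki67, and the 3 genes most like each member, of which 1 is not reported here. The members, the lists and this rule were chosen with earlier results of these data known.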

Additional observations from a re-analysis of the deposited data

How the results depend on the processing

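The counts of members called kept within 1.5 times under every alternative run: 0 in both TCR comparisons, 4 to 7 for 4-8 tissue and 4 to 6 for 12-4.4m1 tissue. Leaving out 1 library gave 4 to 6 in each tissue comparison. Of 110 single-gene values in each tissue comparison, 100 (4-8) and 105 (12-4.4m1) kept their direction and side of the threshold, and 0 reversed; 9 and 3 lost the call, and 1 and 2 gained it. With the replicate block, 6 members passed in each tissue comparison, Tob1 being gained for 12-4.4m1 (adjusted p = 0.0369); no other call changed, and all-gene calls in spleen between TCRs were 78 with the block and 39 without. Same-numbered libraries correlated at between -0.118 and 0.209, and differently numbered ones at between -0.254 and 0.151. Between TCRs in spleen the same-numbered ones were higher, at 0.0748 to 0.12 against -0.0881 to 0.00785. The numbers were not taken as pairs, since no label says that a number marks 1 mouse. With title style as a term, the tissue fit for 12-4.4m1 rests on 1 islet library, replicate 3. The Btg2 difference there was 0.72, against 0.78 as reported. For 4-8 tissue the term sets aside islet replicate 2, so it nearly repeats the fit without that library. The cause of these changes was not tested. All-gene calls moved by 1.5 times or more with title style (52 against 30 in islets between TCRs, 1212 against 717 for 4-8 tissue) and without the trend (17 against 39 in spleen). In spleen they also moved with quantile normalization (26), with replicate 2 of both TCRs left out (11) and with the level of Xist, a transcript of female cells, as a term (19). At a mean count of at least 50 fewer genes were tested and 15 were called in islets between TCRs, a share of 0.4% against 0.365%. Leaving out 1 library gave 306 to 1211 calls over all genes for 4-8 tissue, against 717, with 306, 370 and 326 without spleen replicates 1, 2 and 3 and 1211 without islet replicate 2. It gave 288 to 610 for 12-4.4m1 tissue, against 575, with 288 and 313 without spleen replicates 1 and 2. Between TCRs it gave 9 to 44 in islets, against 30, with 9 and 11 without 12-4.4m1 replicates 1 and 2, and 14 to 56 in spleen, against 39, with 14 and 23 without 4-8 replicates 3 and 2 and 16 without 12-4.4m1 replicate 2. The shares of all genes called beside the members' counts thus depend on single libraries.

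Some uncalled TCR differences changed sign. In islets these were Zfp36l1 with quantile normalization (-0.00815) and title style (-0.10), Zc3h12a with title style (0.0944) and in Cuffdiff (0.0260), and Tob1 in Cuffdiff (0.0563). In spleen they were Btg1 with quantile normalization (-0.00807), without replicate 2 of both TCRs (-0.0217) and with the Xist level (-0.19), Btg2 in the last 2 (-0.15 and -0.14), and Zfp36l1, reported at -0.25, with the Xist level (0.0571). Leaving out 1 library gave, in islets, -0.21 to 0.15 for Btg2, -0.0872 to 0.20 for Zfp36l1, -0.38 to 0.0522 for Zc3h12a, -0.12 to 0.0768 for Tob1 and -0.19 to 0.0120 for Btg1. In spleen it gave -0.10 to 0.0940 for Btg1, -0.17 to 0.14 for Tob1, -0.14 to 0.16 for Btg2, -0.19 to 0.11 for Zfp36l2, -0.17 to 0.00148 for Zfp36 and, with no change of sign, -0.51 to -0.0172 for Zfp36l1.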
